A study of Bos taurus with 11 samples.

Results

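CCL2, IL1RN, OLR1 and AMICA1 are 4 genes of inflammation and leukocyte traffic that were followed in the liver of dairy cows after calving. They were taken by name, and their Ensembl identifiers were read from the name columns of the list of genes that the study had called on these same cows. All 4 are among the 21996 genes of the series, of which 16920 had at least 1 read in some cow. All 4 had at least 5 reads in at least 1 cow, the limit that 13960 genes passed. Since that list was chosen on these cows, the direction of the 4 genes is not independent evidence of a difference between the groups.

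Liver polyA RNA of 11 multiparous Holstein-Friesian cows at about day 14 post calving had been sequenced as single reads. The 5 cows in mild negative energy balance (MNEB), the controls, had free access to grass silage with concentrates and were milked once a day, and the 6 cows in severe negative energy balance (SNEB) had rationed silage, less concentrate and more frequent milking. Diet and milking changed together, so their effects cannot be told apart. The cows had been picked from larger groups for extreme energy balance, and an MNEB cow that the study set aside because of illness was not analysed here.

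CCL2 is a chemokine that draws monocytes into tissue. IL1RN is the secreted antagonist of the interleukin-1 receptor, which binds the receptor without activating it and so restrains interleukin-1. OLR1 is a lectin-like scavenger receptor that takes up oxidized low-density lipoprotein, and AMICA1, now named JAML, is a junctional adhesion molecule of leukocytes that takes part in their passage through epithelium. Resident macrophages, endothelium, incoming leukocytes and hepatocytes can each contribute such transcripts to liver RNA. In bulk tissue a change in the number of cells of a type and a change in the RNA per cell cannot be told apart.

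The totals on genes lay between 1774011 and 4005322 reads in MNEB cows and between 1869837 and 6852142 reads in SNEB cows, from 19 lanes on 3 flow cells. Cows of 1 group differed by more than sampling noise, and the mean chi-square per gene between pairs of cows was 6.18 to 15.6 within MNEB and 5.58 to 12.3 within SNEB. Of 10 hepatocyte markers only CYP7A1 could be matched to an identifier, and it was counted in every cow at 21.7 to 341 CPM. Levels below are CPM, read counts scaled to the reads on genes of a cow after TMM normalization, and are not divided by gene length, so they are compared between cows and not between genes.

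All 4 genes had a higher mean level in SNEB than in MNEB cows, and in the quasi-likelihood test of edgeR AMICA1 alone passed the limit, which was an adjusted p below 0.1. Thus 1 of the 4 genes was called, against 0.544% of all genes tested in either direction (76 of 13960) and 0.330% higher in SNEB (46 of 13960). An unadjusted p under 0.05 with a higher level in SNEB was found for 4 of 4 members and for 4.45% of all genes tested. The levels of all SNEB cows exceeded those of all MNEB cows for 1 of 4 members and for 0.766% of all genes tested. The median log2 fold change was 1.33 for the 4 genes and -0.01 for all genes tested. DESeq2, run as an alternative, called 4 of 4 members higher in SNEB and 1.26% of all genes tested (176 of 13960). The source list had been selected for such differences in these cows, so nothing particular to the 4 genes is read from these shares.

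**Figure D1:**
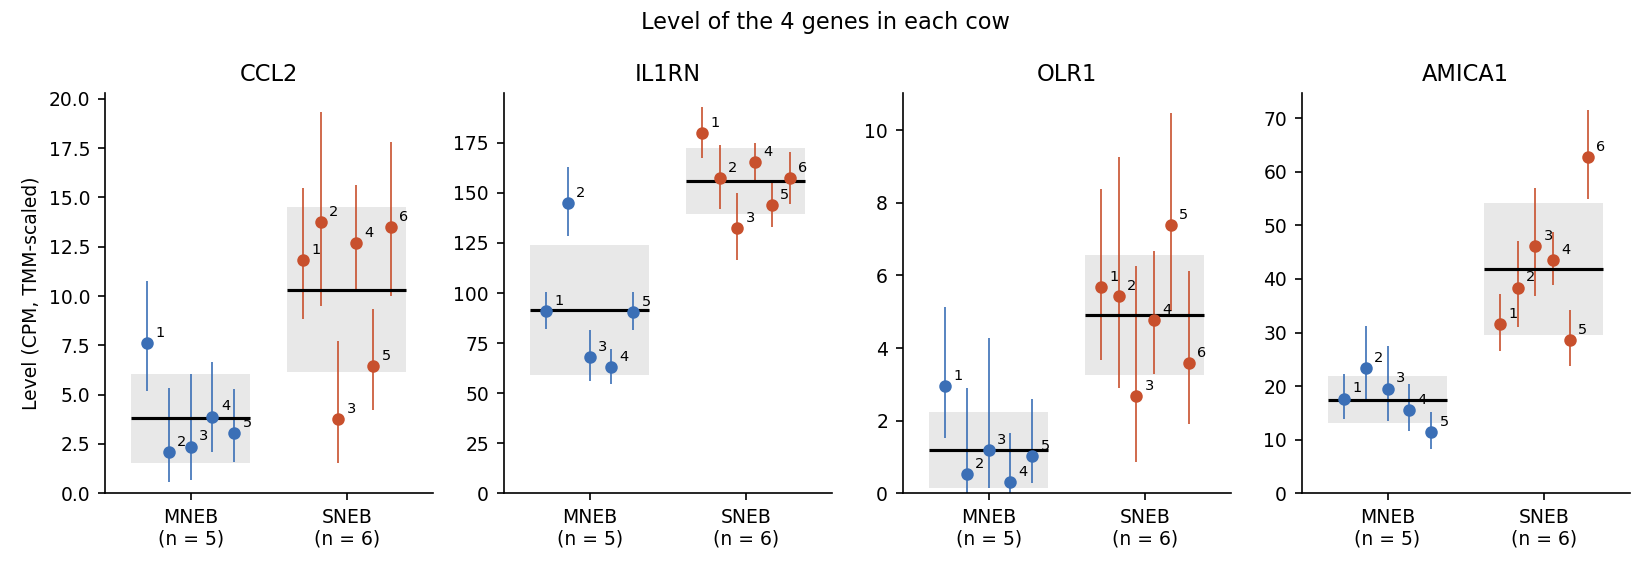
Level of CCL2, IL1RN, OLR1 and AMICA1 in each cow, in CPM after TMM scaling, for MNEB (blue, n = 5) and SNEB (red, n = 6), with replicate numbers beside the points. Vertical lines are 95% Poisson intervals of the read count, black lines are group means and grey boxes are mean ± SD; only in the AMICA1 panel do the points of both groups not overlap.

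The chemokine CCL2 (ENSBTAG00000037811) was counted at 7.60, 2.08, 2.36, 3.88 and 3.03 CPM in MNEB replicates 1 to 5. In SNEB replicates 1 to 6 it stood at 11.8, 13.8, 3.76, 12.7, 6.44 and 13.5 CPM. The groups overlapped, because MNEB1 was high for its group and SNEB3 and SNEB5 were low for theirs. The means were 3.79 ± 2.24 CPM (SD, n = 5) and 10.3 ± 4.19 CPM (SD, n = 6). The level of SNEB was above that of MNEB in 27 of 30 pairs of cows, and 4 of 6 SNEB cows lay above all MNEB cows.

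The fitted difference of CCL2 was a log2 fold change of 1.38 ± 0.38 (SE), or 2.60-fold, with an unadjusted p of 0.00298 and an adjusted p of 0.213 in edgeR. CCL2 therefore did not pass the limit and ranked 194th of the genes tested by p-value. It passed when MNEB1 was left out (1.82, adjusted p = 0.0725 in edgeR) and when SNEB3 was left out (1.52, adjusted p = 0.0874). The lowest counts behind these values were small, with 4 reads in each of MNEB2 and MNEB3 and 7 reads in SNEB3. The 95% Poisson interval of SNEB3, 1.51 to 7.74 CPM, took in all 5 MNEB values, and that of MNEB1 ran from 5.16 to 10.8 CPM. Counting accounted for 25.0% of the variance of CCL2 between MNEB cows and for 16.6% between SNEB cows.

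IL1RN (ENSBTAG00000019665), the interleukin-1 receptor antagonist, was counted at 91.0, 145, 68.0, 63.0 and 90.5 CPM in MNEB replicates 1 to 5. The SNEB cows ranged from 133 CPM in SNEB3 to 179.8 CPM in SNEB1, with a median of 157 CPM. A single cow made the groups overlap, since MNEB2 at 145 CPM lay above SNEB3 and SNEB5 (144 CPM) and the other 4 MNEB cows lay below every SNEB cow. The means were 91.5 ± 32.5 CPM (SD, n = 5) and 156 ± 16.4 CPM (SD, n = 6). The spread relative to the mean was wider in MNEB, with a coefficient of variation of 35.5% against 10.5% in SNEB, and this difference in spread was not tested.

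The log2 fold change of IL1RN was 0.78 ± 0.19 (SE), or 1.71-fold, with an adjusted p of 0.119 in edgeR. It missed the limit, and without MNEB2 it passed (0.99, adjusted p = 0.0129 in edgeR). With the flow cell as a term in the edgeR fit it passed as well (0.82, adjusted p = 0.0575). Reads were plentiful, from 115 in MNEB3 to 1146 in SNEB4, and counting accounted for 3.40% of the variance between MNEB cows and for 17.2% between SNEB cows. The 95% Poisson interval of MNEB2, 128 to 163 CPM, lay above the intervals of the other MNEB cows and overlapped those of SNEB3 (116 to 150 CPM) and SNEB5 (133 to 156 CPM). Its distance from the other MNEB cows thus exceeded counting error, and its place above SNEB3 and SNEB5 did not.

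OLR1 (ENSBTAG00000004547), the oxidized lipoprotein receptor, was counted at very few reads, 12, 1, 2, 1 and 4 in MNEB replicates 1 to 5. These were 2.94, 0.520, 1.18, 0.298 and 1.01 CPM. In SNEB replicates 1 to 6 there were 25, 13, 5, 33, 31 and 13 reads, or 5.68, 5.42, 2.68, 4.76, 7.39 and 3.58 CPM. MNEB1 was higher than SNEB3, and no other pair of cows overlapped, so that 29 of 30 pairs had the higher level in SNEB. The means were 1.19 ± 1.04 CPM (SD, n = 5) and 4.92 ± 1.66 CPM (SD, n = 6).

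The log2 fold change of OLR1 was 1.94 ± 0.45 (SE), or 3.83-fold, with an adjusted p of 0.113 in edgeR. OLR1 passed the limit without MNEB1 (2.71, adjusted p = 0.0192 in edgeR) and without SNEB3 (2.04, adjusted p = 0.0844). Counting accounted for 37.5% of its variance between MNEB cows and for 51.0% between SNEB cows. The 95% Poisson intervals were wide, 0.0132 to 2.90 CPM for the 1 read of MNEB2 and 0.871 to 6.26 CPM for the 5 reads of SNEB3. The interval of MNEB1, 1.52 to 5.14 CPM, overlapped those of all 6 SNEB cows.

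AMICA1 (ENSBTAG00000023283), the leukocyte adhesion molecule, stood at 17.7, 23.4, 19.5, 15.5 and 11.4 CPM in MNEB replicates 1 to 5. In SNEB replicates 1 to 6 it stood at 31.6, 38.4, 46.1, 43.6, 28.6 and 62.8 CPM. Every SNEB cow was above every MNEB cow, with a gap between MNEB2 and SNEB5. The 95% Poisson intervals of these cows overlapped, at 17.1 to 31.3 CPM in MNEB2 and 23.7 to 34.2 CPM in SNEB5. The means were 17.5 ± 4.48 CPM (SD, n = 5) and 41.8 ± 12.3 CPM (SD, n = 6). SNEB6 had the highest level, and the 95% Poisson interval of its 228 reads was 54.9 to 71.5 CPM.

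AMICA1 rose in SNEB by a log2 fold change of 1.28 ± 0.23 (SE), or 2.42-fold, with an adjusted p of 0.0366 in edgeR. It ranked 32nd of the genes tested by p-value. The call held in 10 of 11 fits that each left out 1 cow, and was lost without MNEB5, the lowest cow (1.15, adjusted p = 0.107 in edgeR). It was also lost when flow cell A, which carried 1 cow of each group, was left out (1.22, adjusted p = 0.185). Counts lay between 33 and 302 reads, and counting accounted for 35.4% of the variance between MNEB cows and for 8.67% between SNEB cows. In the RefSeq annotation of the later ARS-UCD2.0 assembly a long non-coding RNA overlaps JAML, so its reads could be shared if strand was not used in counting, which is not given in the sources used here.

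**Figure D2:**
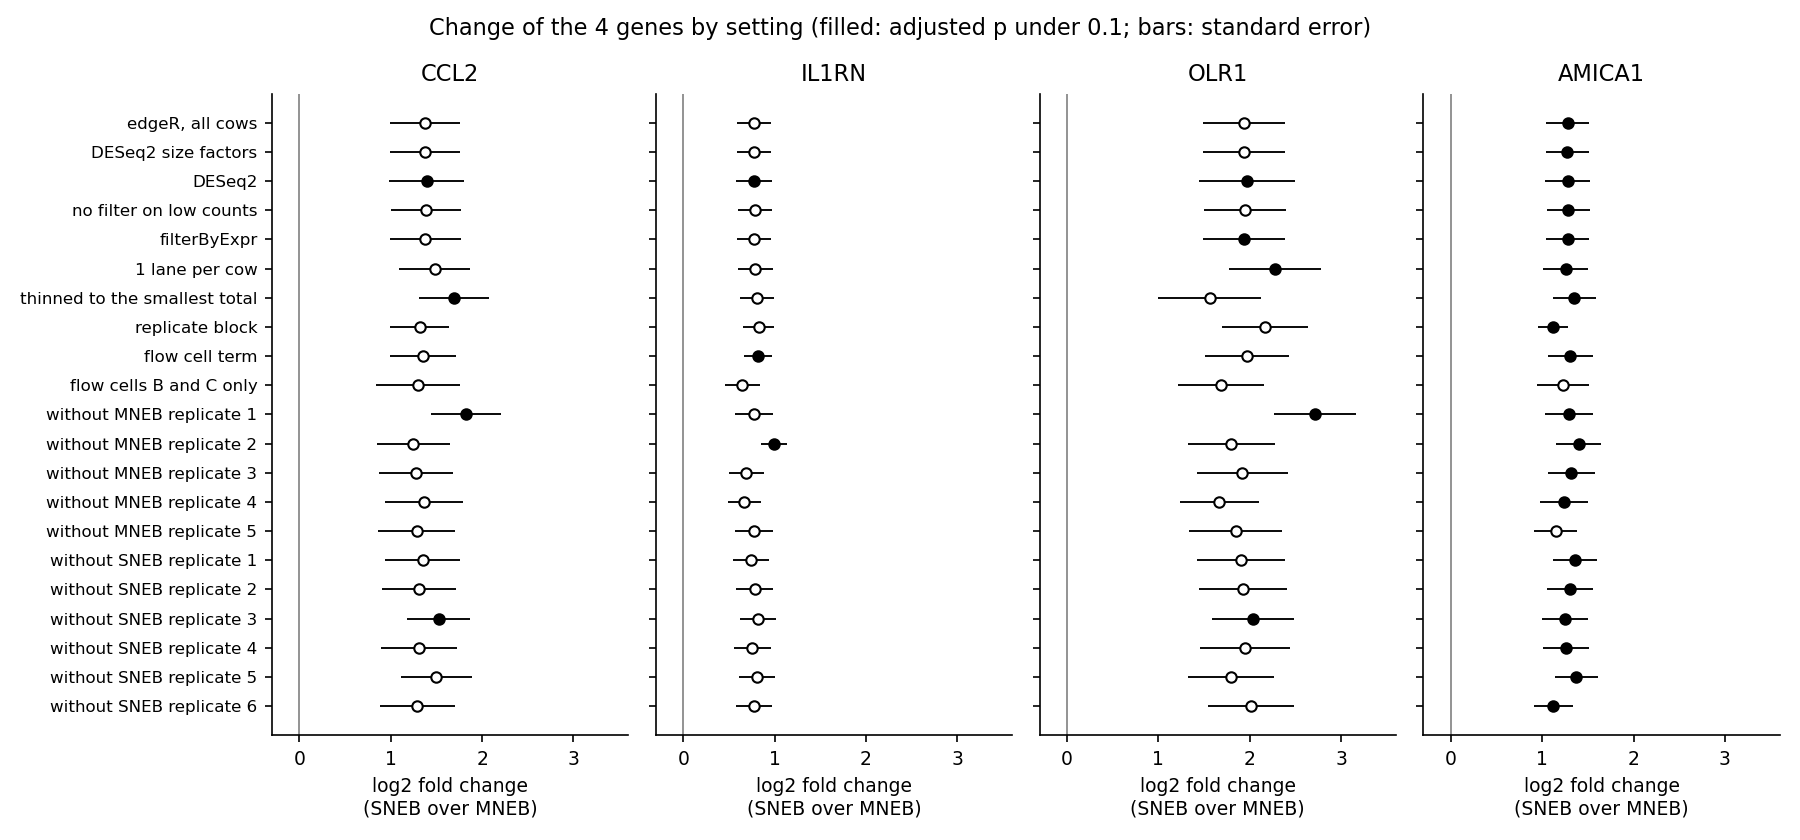
Log2 fold change (SNEB over MNEB, x axis) of each gene in the edgeR fit of all 11 cows, under 9 alternatives and without each cow in turn; bars are standard errors and filled circles mark an adjusted p under 0.1. All values lie above 0, AMICA1 is filled in most rows, and CCL2, IL1RN and OLR1 are mostly open.

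The flow cells did not separate the groups, since each combination of flow cells carried cows of both. Within each of the 4 combinations the mean level was higher in SNEB than in MNEB for 4 of 4 members, as it was for 9.89% of all genes tested. For IL1RN, OLR1 and AMICA1 the SNEB cows were all above the MNEB cows in each of the 4 combinations, as for 2.79% of all genes tested, and for CCL2 in 3 of 4. With 1 cow of each group in 3 of the combinations this is there only the sign of a difference, and the members came from a list selected on these cows, so nothing is read from these shares. Among the 2 MNEB and 3 SNEB cows run on both flow cells B and C, the mean of CCL2 was 5.32 CPM in MNEB and 10.6 CPM in SNEB. For the same cows the means were 90.7 and 160 CPM for IL1RN, 1.98 and 5.55 CPM for OLR1, and 14.5 and 41.0 CPM for AMICA1. The combinations of 1 cow per group gave no spread.

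The log2 ratio of these means ranged from 0.67 to 2.73 over the 4 combinations for CCL2, from 0.12 to 1.39 for IL1RN, from 1.18 to 3.996 for OLR1 and from 0.72 to 1.498 for AMICA1. The OLR1 ratios of single cows rested on 1 or 2 MNEB reads, and their 95% intervals from the exact binomial test, for counting error only, were 1.42 to 9.34 on flow cell A, -1.43 to 4.57 on flow cell B and 0.65 to 8.79 on flow cell C. The smallest ratios of IL1RN and AMICA1 were both on flow cell C, where the MNEB cow was MNEB2. The smallest ratios of CCL2 and OLR1 were both on flow cell B, where the SNEB cow was SNEB3. The same kind of interval was -0.11 to 0.35 for IL1RN on flow cell C and -1.31 to 2.89 for CCL2 on flow cell B. Both took in 0, whereas that of AMICA1 on flow cell C, 0.19 to 1.26, did not.

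The 7 cows run on more than 1 lane allowed the lanes of a library to be compared. Of 28 exact tests of equal level between lanes, 1 for each gene and cow, 1 had a p under 0.05. It was OLR1 in SNEB5, with 9 reads on one lane and 22 on the other, or 4.08 and 11.3 CPM of the lane without TMM (exact test, p = 0.0105, adjusted over the 28 tests 0.295). The highest OLR1 level of any cow thus came mostly from 1 of its lanes. IL1RN in SNEB4 showed closer agreement, at 166 to 169 CPM of the lane over 3 lanes, and AMICA1 in the same cow stood at 41.9 to 46.4.

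**Figure D3:**
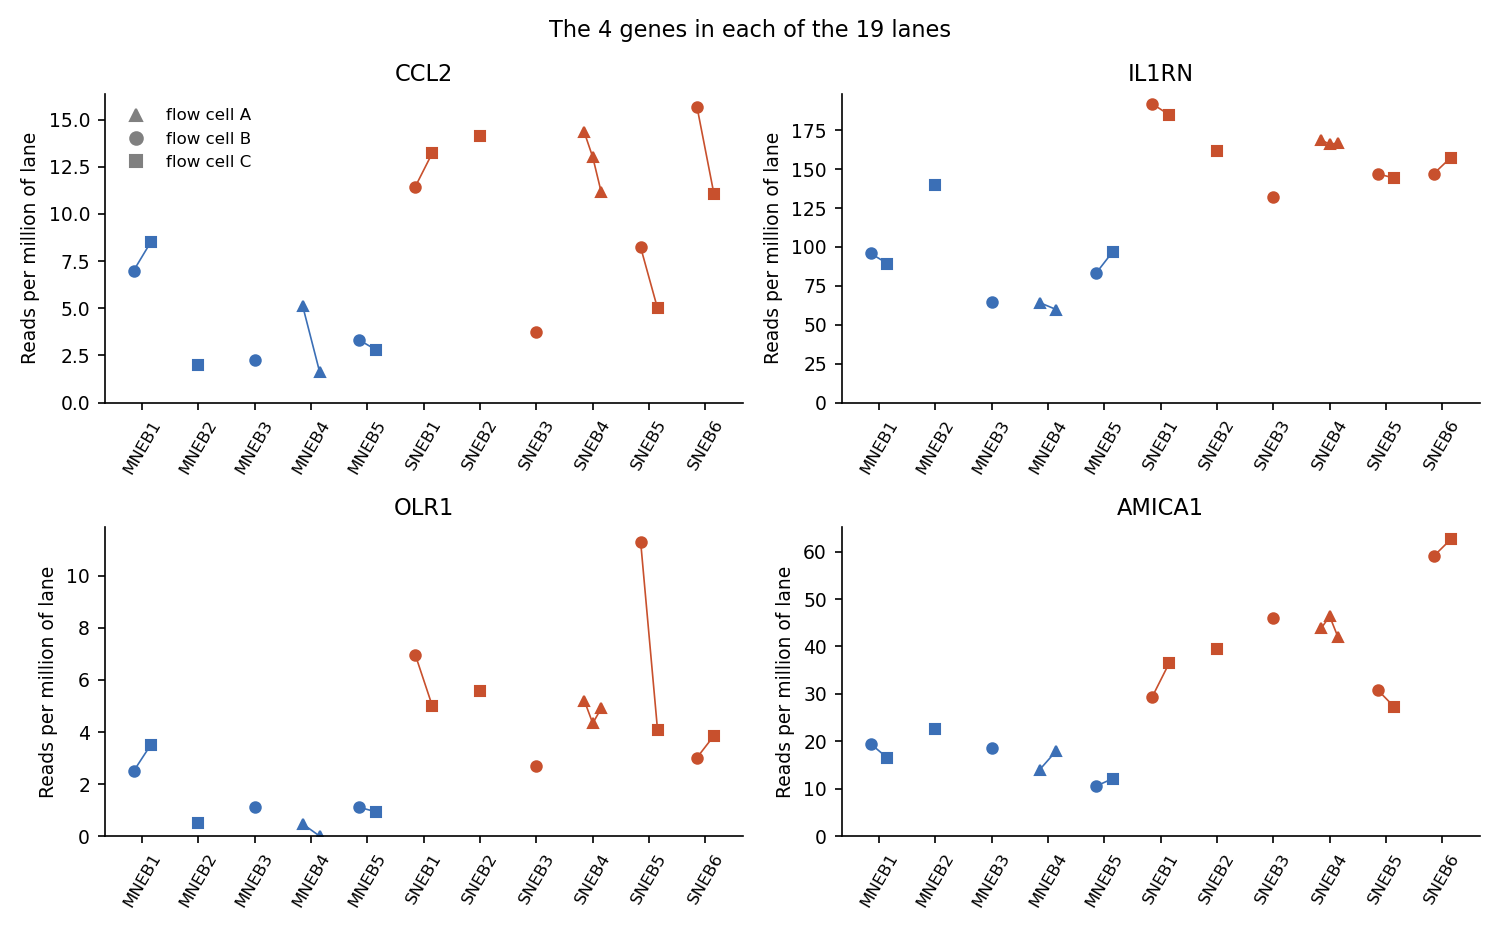
CPM of each lane, without TMM scaling (y axis), for the 4 genes in the 11 cows, with lanes of 1 cow joined by a line and the symbol giving the flow cell. Lanes of a cow lie close together for IL1RN and AMICA1, and the widest gap for OLR1 is between the lanes of SNEB5.

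Whether the 4 genes varied together from cow to cow was examined after subtracting each group's mean from the log2 levels, so that the difference between the groups did not enter. Over the 11 cows the strongest positive relation was that of CCL2 and OLR1, with a Pearson r of 0.49 (exact permutation within groups, p = 0.138, adjusted over 6 pairs 0.829). Its Spearman rho was 0.42 (exact permutation, p = 0.219, adjusted 0.733). The r turned to -0.61 without MNEB1 and SNEB3, the cows farthest from the median of group-centred CCL2, and it was 0.15 without MNEB1 alone. It stayed at 0.47 without MNEB2 and MNEB3, the cows farthest from the median CCL2 level before centring. OLR1 and AMICA1 gave an r of -0.36 (exact permutation, p = 0.300, adjusted 0.900) and a rho of -0.41 (p = 0.244, adjusted 0.733). Their r was -0.70 without MNEB1 and MNEB4, the cows farthest out for group-centred OLR1. Without MNEB2 and MNEB4, the cows farthest out for OLR1 before centring, it was -0.36. Neither relation passed the limit of 0.05, so no pair was shown to vary together.

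For the other 4 pairs r lay between -0.0013 and 0.21, with exact permutation p-values of 0.574 to 0.997 (each adjusted to 0.997). Their rho lay between -0.05 and 0.28 (exact permutation, adjusted p = 0.791 to 0.990). Leaving out MNEB1 and SNEB3 in the same way turned CCL2 and IL1RN from 0.08 to -0.24 and gave 0.17 for CCL2 and AMICA1. For group-centred IL1RN the cows farthest out were MNEB2 and MNEB4, and without them r was 0.41 with OLR1 and turned from 0.21 to -0.32 with AMICA1. By levels before centring, the cows farthest out were MNEB2 and MNEB3 for CCL2 and MNEB3 and MNEB4 for IL1RN. Without those of CCL2, r was 0.56 with IL1RN and 0.31 with AMICA1. Without those of IL1RN, r was -0.34 with OLR1 and 0.37 with AMICA1. MNEB2 weighed most on the pairs of IL1RN, since without this cow alone r was 0.62 with CCL2, 0.62 with OLR1 and -0.25 with AMICA1. Without flow cell A, r was 0.12 for CCL2 and IL1RN, 0.63 for CCL2 and OLR1, -0.01 for CCL2 and AMICA1, -0.24 for IL1RN and OLR1, 0.16 for IL1RN and AMICA1 and -0.50 for OLR1 and AMICA1.

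**Figure D4:**
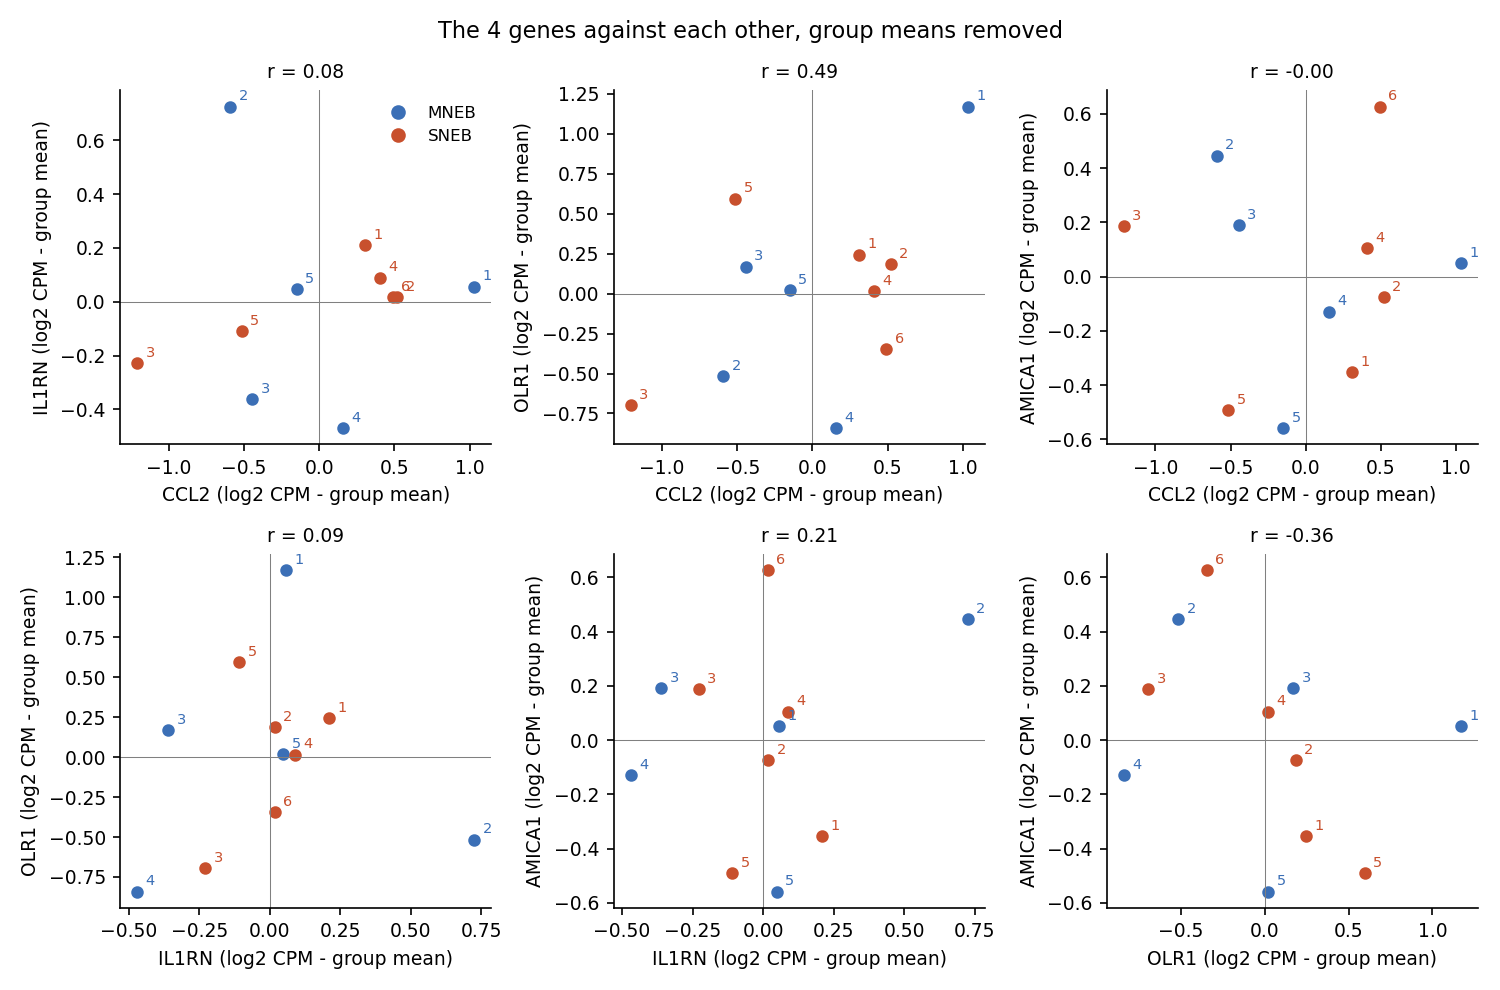
Each of the 6 pairs of genes, as log2 CPM minus the group mean on both axes, for 5 MNEB cows (blue) and 6 SNEB cows (red), with the replicate number beside each point and Pearson's r over all 11 cows above each panel. MNEB1 stands out to the right for CCL2 and at the top for OLR1, and MNEB2 is at the top for IL1RN.

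Within the 6 SNEB cows alone, CCL2 and IL1RN had an r of 0.83 (exact permutation, p = 0.0375, adjusted over 6 pairs 0.158) and a rho of 0.49 (p = 0.356, adjusted 0.857). OLR1 and AMICA1 had an r of -0.80 (exact permutation, p = 0.0528, adjusted 0.158) and a rho of -0.94 (p = 0.0167, adjusted 0.1). The remaining pairs lay between -0.14 and 0.41 (exact permutation, adjusted p = 0.740 to 0.806). With 6 cows and 6 pairs, none passed after adjustment.

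The order of the cows within a group differed from gene to gene. SNEB3 was lowest of the SNEB cows for CCL2, IL1RN and OLR1 and second highest for AMICA1. SNEB5 was highest for OLR1 and lowest for AMICA1. Among MNEB cows MNEB1 was highest for CCL2 and OLR1, and MNEB2 was highest for IL1RN and AMICA1 and lowest for CCL2. No cow of either group was thus highest or lowest for all 4 genes.

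The genes whose group-centred levels were most like each member were sought among 11846 genes with a mean of at least 10 reads per cow. The 3 nearest genes had an r over the 11 cows of 0.92 to 0.95 for CCL2, 0.94 to 0.97 for IL1RN, 0.91 to 0.96 for OLR1 and 0.90 to 0.92 for AMICA1, and none of these 12 genes had a name in the sources used. Among the 381 named genes, chosen for naming after their values were seen, the nearest to CCL2 included A6QP18_BOVIN (r = 0.84) and TNFRSF12A (0.84), a receptor of the tumour necrosis factor family. The nearest to OLR1 were EGR1 (0.85), PDK4 (0.81), a kinase that restrains pyruvate dehydrogenase, and FOXM1 (0.78). For IL1RN they were SPATA20 (0.89), SLC45A3 (0.87) and AMPD2 (0.84), and for AMICA1 they were ABCG5 (0.77), a sterol transporter, CCL24 (0.76) and SYCE1 (0.75). All these points share the library and the depth of the cow. The nearest genes were picked for the highest r, so nothing is read from the lower r between members. For CCL2, 14.2% of the 11846 genes had a higher r than OLR1 did, and for OLR1, 12.1% had a higher r than CCL2 did. For the other pairs of members this share was 25.4% to 86.0%.

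Of the partners of the 4 genes few carried a name in the sources, so each pathway is described by the members that could be matched. These names too come from the list of genes that the study had called on these cows, so the counts and tests of the matched genes are not independent evidence. In the interleukin-1 list, 2 of 19 genes were matched, IL1RN and the decoy receptor IL1R2, and neither was called. IL1R2 averaged 26.9 CPM in MNEB and 49.7 CPM in SNEB, and its log2 fold change was 0.88 ± 0.33 (SE) with an adjusted p of 0.424 in edgeR. Both interleukin-1 genes matched here are inhibitors of the pathway, and the ligands IL1A and IL1B were not analysed here.

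Among 33 chemokines and chemokine receptors, CCL2 and the eotaxin CCL24 were matched and neither was called. CCL24 had means of 30.9 and 8.24 CPM, with a log2 fold change of -2.01 ± 0.83 (SE) and an adjusted p of 0.506 in edgeR. MNEB2 alone stood at 99.8 CPM, and without it the change was -0.83 (adjusted p = 0.793). The receptor of CCL2, CCR2, was not analysed here.

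Among 16 scavenger receptors, OLR1 and the macrophage receptor MARCO were matched and neither was called. MARCO averaged 139 CPM in MNEB and 90.4 CPM in SNEB, a difference of -0.64 ± 0.38 (SE) on the log2 scale (adjusted p = 0.712 in edgeR).

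In the list of 18 junctional adhesion molecules and genes of leukocyte transmigration, AMICA1 and SELP were matched and both were called, in opposite directions. SELP encodes P-selectin, which platelets and endothelium display and on which leukocytes roll. It fell in SNEB from 57.7 to 23.5 CPM, with a log2 fold change of -1.32 ± 0.22 (SE) and an adjusted p of 0.0183 in edgeR. The call of SELP held in 11 of 11 fits that left out 1 cow and was lost without flow cell A (adjusted p = 0.146).

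Of 21 acute phase proteins, A2M and SERPINA3 were matched and neither was called. A2M, a protease inhibitor of plasma, had means of 858 and 595 CPM (log2 fold change -0.53 ± 0.30, SE, adjusted p = 0.701 in edgeR) and was called only without SNEB3 (-0.94, adjusted p = 0.0342). SERPINA3, antichymotrypsin, had means of 61.3 and 119 CPM (0.99 ± 0.73, SE, adjusted p = 0.798 in edgeR), and its log2 fold change was 1.68 without MNEB3 and 0.59 without SNEB3. Of 20 genes of the NF-kB pathway and cytokine feedback, the phosphatase DUSP4 was matched. DUSP4 had means of 1.99 and 5.85 CPM and an adjusted p of 0.119 in edgeR (1.51 ± 0.36, SE).

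The list of LXR and RXR activation holds CCL2 and IL1RN beside genes of sterol and lipid handling, and 8 of 21 were matched. RXRG (1.49, adjusted p = 0.0326) and ARG2 (1.86, adjusted p = 0.0449) were called higher in SNEB by edgeR. The sterol transporters ABCG5 (-1.38, adjusted p = 0.00953) and ABCG8 (-2.43, adjusted p = 0.0456) were called lower. CCL2, IL1RN, ACACA and CYP7A1 were not called. By edgeR without 1 cow, the call of RXRG was lost without MNEB5 (adjusted p = 0.113), that of ARG2 without MNEB2, MNEB4 or MNEB5 (0.107 to 0.138) and that of ABCG8 without MNEB4 or SNEB6 (0.125 and 0.122). Of the 8 genes, 4 had a higher and 4 a lower fitted level in SNEB.

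**Figure D5:**
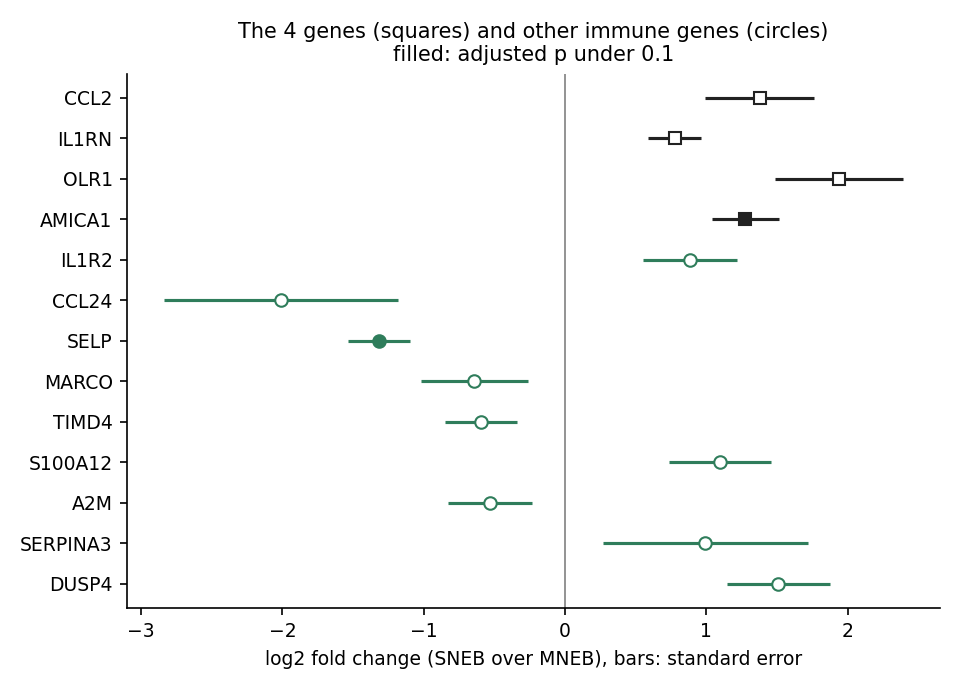
Log2 fold change of SNEB over MNEB (x axis, bars are standard errors) for CCL2, IL1RN, OLR1 and AMICA1 (squares) and for 9 other immune genes that had an identifier (circles); filled symbols have an adjusted p under 0.1 in edgeR. The 4 squares lie to the right of 0, AMICA1 and SELP are filled, and SELP lies to the left.

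Markers of the cell types that could carry these transcripts were summed per cow and compared by a two-sided exact permutation test over all splits of the cows into groups of these sizes. They could be matched only through the same list of called genes, so they were in part chosen for the difference tested and their p-values are not independent evidence. S100A12, the 1 of 7 neutrophil markers that was matched, ranged from 10.8 to 36.9 CPM in MNEB and from 21.2 to 65.5 CPM in SNEB. Its log2 difference was 1.04 (exact permutation, p = 0.0433), in the direction of the 4 genes. This p was not stable to single cows. Leaving out 1 cow at a time gave an exact permutation p of 0.0238 to 0.0476 in 4 cases and of 0.0714 to 0.0905 in 7. In the fit across all genes the adjusted p of S100A12 was 0.320 in edgeR. Like AMICA1, S100A12 was highest of the SNEB cows in SNEB6 (65.5 CPM) and lowest in SNEB5 (21.2 CPM), and highest of the MNEB cows in MNEB2 (36.9 CPM). Other cows differed between these genes. SNEB1 had S100A12 at 64.2 CPM and was second lowest of its group for AMICA1 (31.6 CPM). MNEB5, lowest of its group for AMICA1 (11.4 CPM), had S100A12 at 27.0 CPM, and the lowest MNEB cow for S100A12 was MNEB1 (10.8 CPM). In SNEB3, where CCL2, IL1RN and OLR1 were lowest, S100A12 stood at 58.5 CPM. The part of S100A12 or of neutrophils in the differences of the 4 genes was not tested.

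MARCO and TIMD4, the 2 of 12 markers of Kupffer cells and macrophages that were matched, summed to 125 to 277 CPM in MNEB and to 75.6 to 255 CPM in SNEB. Their log2 difference was -0.68 (exact permutation, p = 0.0866), opposite in sign to the 4 genes. It was -0.90 without SNEB3 (exact permutation, p = 0.0238), the lowest p when any 1 cow was left out. Leaving out any other single cow gave -0.84 to -0.54 (exact permutation, p = 0.0524 to 0.176). Without flow cell A the difference was -0.51 (exact permutation, p = 0.246). The macrophage genes TREM2 and GPNMB, which are not in this marker list, differed the other way and were not called. Their log2 fold changes were 1.39 and 0.81 (adjusted p = 0.681 and 0.795 in edgeR). CYP7A1, the matched hepatocyte marker, differed by -1.06 (exact permutation, p = 0.229), which is not taken as a measure of hepatocyte content. HBB, 1 of 3 erythroid markers, ranged from 0 to 49.9 CPM in MNEB and from 0.144 to 1.19 CPM in SNEB (-1.002, exact permutation, p = 0.532). The 95% Poisson interval of the 0 reads of MNEB3 reached 2.18 CPM. None of the markers of T and NK cells (0 of 10), B and plasma cells (0 of 5), all leukocytes (0 of 6), endothelium (0 of 7), stellate cells and fibroblasts (0 of 7) or cholangiocytes (0 of 4) could be matched. The part of these cell types in the levels of the 4 genes was therefore not tested.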

How the data were processed

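Lane by lane, the authors mapped reads with Bowtie (BCM4 assembly), kept those with a single alignment, removed duplicates at the same position and counted the remainder per Ensembl gene with HTSeq. The deposited values are raw counts per gene and lane. Removal of duplicate positions caps how far a count can rise, and the strand setting is not given in the sources used here. CASAVA 1.4 and SAMtools are also named in the submitters' processing notes.

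Lanes of a cow were summed. Genes that reached 5 reads in any cow were tested by edgeR 4.0.16 in R 4.3.3 (TMM normalization, quasi-likelihood test, Benjamini-Hochberg adjustment over all genes tested, calls at an adjusted p under 0.1). Standard errors were derived as the absolute log2 fold change over the square root of F. Log2 levels for correlations used a prior count of 2, and summed marker levels a pseudocount of 0.5. Intervals of counts cover counting error only. The p-values of group comparisons and correlations rest on the variation between these cows, and those of the lane tests on counting error only. Tested on simulated counts of SNEB against MNEB (13725 genes), edgeR recovered 67.9% of 106 genes changed by 1 log2 unit and 95.7% of 94 genes changed by 2, and 6.9% of its calls were false. For DESeq2 the shares were 77.4%, 95.7% and 19.2%. Exact permutation tests used scipy 1.17.1, tables pandas 2.3.3, and plots matplotlib 3.10.9.

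The alternatives were DESeq2 1.42.0, its size factors within edgeR, no filter, the filter of edgeR's filterByExpr, a single lane for each cow, thinning of all cows to the lowest depth, the replicate number or the combination of flow cells as a term, omission of flow cell A, and omission of each cow. For correlations the prior count was also changed.

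The 4 genes, the pathway and marker lists and the tests were chosen with earlier results of these data known. Named were the 4 genes, the genes of each list with an identifier (at most 5 of a list, by smallest p), and for each of the 4 the 3 genes with the most similar group-centred level. Names came from the identity columns of the study's gene list (413 genes), whose columns of fold changes and p-values were not used. Genes with no name there were not analysed here by name. Neighbouring genes were read by name from RefSeq (ARS-UCD2.0). A gene that the rule on similar levels would name is not reported here.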

Additional observations from a re-analysis of the deposited data

Results flagged for a closer look

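In groups of 5 and 6 cows the highest or lowest cow was tested for standing apart from the rest of its group, by its gap over the range of the group. Of 56 groups, each 1 gene in 1 group of cows, 10 had such a cow. The limits of this test would flag about 5% of independent groups of normally distributed values. CPM of few reads can be skewed and the same cows recur in all groups, so the 10 are not set against that share. No group of CCL2, IL1RN, OLR1 or AMICA1 was among them, and the 10 belonged to other immune or marker genes.

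Among MNEB cows, MNEB2 was high for the chemokine CCL24 (99.8 CPM, group median 21.3 CPM), for the hemoglobin gene HBB (49.9 CPM, median 0.735 CPM) and for the acute phase gene SAA3P (27.0 CPM, median 1.26 CPM). MNEB1, the MNEB cow with the highest CCL2 and OLR1, was high for the macrophage receptor TREM2 (15.7 CPM, median 1.18 CPM) and for TNFRSF12A (54.2 CPM, median 17.3 CPM). Among SNEB cows, SNEB3, the cow with the lowest CCL2, IL1RN and OLR1 of its group, was high for SELP (37.6 CPM, median 21.8 CPM), A2M (1329 CPM, median 437 CPM) and TIMD4 (77.2 CPM, median 35.9 CPM). SNEB4 was high for the cytokine IL17B (57.7 CPM, median 10.3 CPM) and SNEB6 for SAA3P (39.1 CPM, median 9.60 CPM).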

How the results depend on the processing

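The 4 genes kept their direction under every alternative run, and the calls moved. In log2 fold change, with the adjusted p, AMICA1 lost its call without flow cell A (1.22, 0.185). CCL2 gained it with DESeq2 (1.39, 0.0523) and after thinning (1.70, 0.0934), IL1RN with DESeq2 (0.78, 0.0111) and the flow cell term (0.82, 0.0575), and OLR1 with DESeq2 (1.97, 0.0190), filterByExpr (1.93, 0.0965) and 1 lane per cow (2.28, 0.0719). Over all alternatives that keep every cow or drop only flow cell A the adjusted p was 0.0523 to 0.555 for CCL2, 0.0111 to 0.408 for IL1RN, 0.0190 to 0.391 for OLR1 and 6.93e-05 to 0.185 for AMICA1. Leaving out 1 cow at a time gave 1.25 to 1.82 for CCL2, 0.67 to 0.99 for IL1RN, 1.67 to 2.71 for OLR1 and 1.12 to 1.398 for AMICA1. The number of genes called was 76 with all cows in edgeR, 290 with DESeq2, 34 without flow cell A and 40 to 125 without 1 cow. The cause of these shifts was not tested, beyond the smaller number of cows in some fits.

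Correlations near 0 changed sign. CCL2 and AMICA1 gave 0.0205 with a prior count of 5 and 0.0077 after thinning, CCL2 and IL1RN gave -0.0015 after thinning, and IL1RN and OLR1 gave -0.24 without flow cell A and -0.0704 after thinning. Without 1 cow, r ran from -0.20 to 0.16 for CCL2 and AMICA1, -0.12 to 0.62 for CCL2 and IL1RN, 0.15 to 0.65 for CCL2 and OLR1, -0.25 to 0.31 for IL1RN and AMICA1, -0.24 to 0.62 for IL1RN and OLR1 and -0.56 to -0.26 for OLR1 and AMICA1. The neutrophil marker S100A12 differed by 0.94 without flow cell A (exact permutation, p = 0.111). Without 1 cow its difference was 0.82 to 1.25, that of the Kupffer cell markers -0.90 to -0.54, of the hepatocyte marker -1.59 to -0.66 and of the erythroid marker -1.51 to 0.15.

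The labels number the cows of both groups from 1 and do not call same-numbered cows pairs, so the main fit did not pair them. The study blocked its cows by parity, body condition and previous yield before allocation. Whether the numbers follow these blocks is not given. Same-numbered cows 1 to 5 had the same combination of flow cells, so a block of the number also takes up the flow cells. Over 11847 genes the r between the deviations of same-numbered cows was 0.310, 0.0125, 0.392, 0.0231 and -0.0791, which was not tested. In fits that held the replicate number as a block, in which SNEB6 shares its number with no cow and adds nothing to the difference, the edgeR values were 1.12 (adjusted p = 0.0558) for AMICA1, 1.32 (0.219) for CCL2, 0.83 (0.131) for IL1RN and 2.17 (0.159) for OLR1, and 80 genes were called. At these depths 1 CPM was a few reads in a cow, which limits what can be said of OLR1 and CCL2.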

Other observations

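Other immune genes that carried a name in the study's list were looked at beside the 4 genes, and they were chosen after their values were seen. CXCL17, a mucosal chemokine, was lower in every SNEB cow (9.36 to 16.1 CPM) than in every MNEB cow (20.6 to 30.9 CPM), and its mean fell from 24.7 to 12.4 CPM (adjusted p = 0.0449 in edgeR). The call was lost without MNEB5 (adjusted p = 0.138) and without SNEB6 (0.105). Its direction was opposite to that of CCL2. IL17B, a cytokine of the interleukin-17 family, was higher in every SNEB cow (3.10 to 57.7 CPM) than in every MNEB cow (0 to 2.60 CPM), with an adjusted p of 0.105 in edgeR. The 95% Poisson interval of the 0 reads of MNEB4 reached 1.10 CPM.

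PLAUR, the urokinase receptor of myeloid cells, had means of 3.91 and 13.5 CPM in MNEB and SNEB (log2 fold change 1.68, adjusted p = 0.284 in edgeR). TNFRSF12A had means of 23.0 and 46.1 CPM (0.97, adjusted p = 0.670) and CD70 had means of 2.66 and 6.51 CPM (1.26, adjusted p = 0.711). The macrophage genes TREM2 and GPNMB had means of 4.32 and 12.4 CPM (1.39, adjusted p = 0.681) and of 182 and 322 CPM (0.81, adjusted p = 0.795). SAA3P had means of 6.13 and 12.7 CPM (1.27, adjusted p = 0.819). Single cows moved several of these log2 fold changes. Without MNEB1 the value was 2.96 for TREM2, 2.58 for CD70, 1.57 for TNFRSF12A and 1.22 for GPNMB, and without SNEB1 it was 0.56 for TNFRSF12A. SAA3P was at 3.77 without MNEB2 and at 0.52 without SNEB6. In MNEB, the cow with the highest level of TREM2, GPNMB, PLAUR, TNFRSF12A and CD70 was MNEB1, which was also the MNEB cow with the highest CCL2 and OLR1. No single SNEB cow stood highest in this way. SNEB1 was highest for TREM2, GPNMB and TNFRSF12A, SNEB2 for PLAUR and CCL2, SNEB4 for CD70 and SNEB5 for OLR1.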
